A study of Mus musculus with 26 samples.

Results

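The genes described here encode the ephrins, their Eph receptors, the semaphorins and the neuropilin and plexin receptors of the semaphorins. The families were chosen with earlier results of these data known, so the shares called below describe these data only. Every gene was taken from the expression table whose symbol begins with Efna, Efnb, Epha, Ephb, Sema or Nrp and a number. Genes whose symbol begins with Plxna, Plxnb, Plxnc or Plxnd were also taken, and Sema3b was left out. This gave 53 of the 24409 genes in the table, made up of 8 ephrins, 14 Eph receptors, 19 semaphorins, 2 neuropilins and 10 plexin entries, the last including Plxna4os1, a transcript antisense to Plxna4. They were compared between wild-type (WT) mouse embryonic stem (ES) cells and ES cells without ZFP57, a KRAB zinc finger protein that binds a methylated hexanucleotide and maintains DNA methylation at imprinting control regions.

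Both groups were male ES cells of the C57BL/6J strain, derived from preimplantation embryos and grown in N2B27 medium with inhibitors of Erk and Gsk3 (2i) and LIF at matched passage. The ZFP57 KO cells were zygotic mutants, homozygous for a disruption of the coding exons that hold the KRAB domain and the zinc fingers, as opposed to mutants that also lack the maternal product of the egg. RNA-seq had 3 WT and 2 KO libraries of ribosomal RNA-depleted total RNA, and ZFP57 binding was given as a list of 1423 ChIP-seq peaks from WT cells of the same strain. Which of the derived lines gave which library is not stated in the labels, so p-values measure the spread between these libraries, which may be technical in part.

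Ephrins are membrane-bound ligands. Those of the A class are held by a lipid anchor and those of the B class span the membrane, and they are read by Eph receptor tyrosine kinases on neighbouring cells, with signals that run into both cells. Semaphorins are secreted or membrane-bound ligands that act through plexins, whose intracellular part switches off Ras-family GTPases, and the secreted class 3 semaphorins mostly need a neuropilin as co-receptor. The families are best known for steering axons, for keeping tissue boundaries and for shaping blood vessels.

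The level of each gene was given in FPKM (fragments scaled by the length of the transcript and by the total of the library), which is a level per length and can be set side by side between genes. Of the 53 genes, 40 had a mean of at least 0.1 FPKM over the 5 libraries and were tested with limma on log2(FPKM + 0.1), within a fit of all 14612 genes above that level. A gene was called where the Benjamini-Hochberg adjusted p was under 0.05, and every log2 fold change below is KO minus WT on that scale. The other 13 genes never exceeded 0.14 FPKM in any library and were not tested.

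In KO cells, 16 of the 40 tested guidance genes were higher (40%) and 3 were lower (7.5%), while 21 did not pass the test. Over all genes tested, 18.8% were called higher and 22.3% were called lower. With the median change of each chromosome subtracted, these shares were 18.2% and 18.5%, and 15 members were higher and 3 lower. Because the families were chosen with earlier results of these data known, these contrasts are descriptive. The log2 fold changes of the 40 guidance genes had a median of 0.18, beside -0.01 for all genes tested. Without KO replicate 2 these medians were 0.01 and -0.02, and 13 members were higher, beside 12.4% of all genes. Ephrins and Eph receptors supplied 10 of the genes that were higher and none that were lower, the semaphorins gave 2 in each direction, and Nrp2 and 3 plexins were higher with 1 plexin lower. The 4 changes of at least 1 on the log2 scale were those of Nrp2, Epha1, Sema5a and Epha4, and all 4 were higher in KO cells. This count depends on the pseudocount, since at 1 none of the called genes named here reached that size, and at 0.01 Epha7 (1.03), Plxna2 (1.01) and the lower gene Plxnd1 (-1.39) did as well. Filtering can itself favour a call where a gene passes through the group in which it is high, and 3 tested members had a group mean under 0.1 FPKM. These were Epha1 in WT cells and Plxnd1 and Epha10 in KO cells.

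The counts by separation of the libraries ran the same way. Both KO libraries lay above all 3 WT libraries for 19 of the tested members (47.5%, beside 30.3% of all genes tested) and below them for 11 (27.5%, beside 33.1%), and the groups overlapped for the other 10. For any one gene, the smallest two-sided p that exact permutation of 3 libraries against 2 can reach is 0.1, so the adjusted p-values rest on the spread that limma shares across genes. Summed over all 53 genes, the level was 84.50, 82.43 and 82.30 FPKM in the WT libraries and 105.98 and 115.32 FPKM in the KO libraries.

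**Figure D1:**
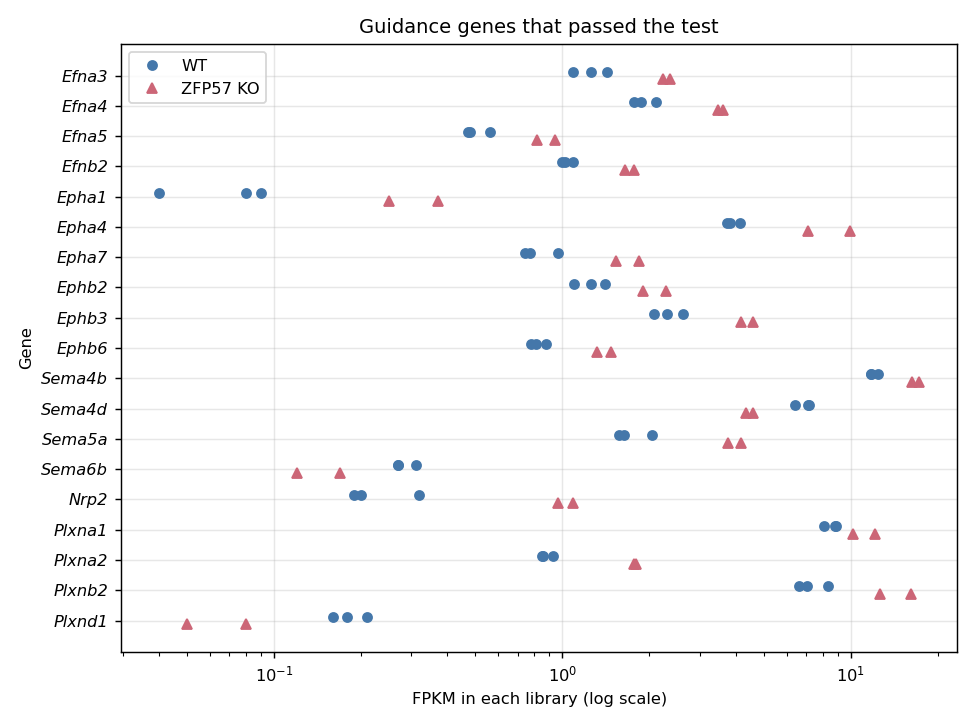
FPKM of the 19 guidance genes that passed the test, on a log axis, with each of the 3 WT libraries as a circle and each of the 2 KO libraries as a triangle. The groups did not overlap for any of these genes, but the genes were picked by a test on the same libraries, so this adds no support. The KO libraries lay to the left of the WT libraries for Sema4d, Sema6b and Plxnd1 only.

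Of the 5 A-class ephrins, Efna3, Efna4 and Efna5 were higher in KO cells by 0.70 to 0.85 on the log2 scale, and Efna1 and Efna2 were not called. The 3 neighbours Efna1, Efna3 and Efna4 lie in a row on the minus strand of chromosome 3, at chr3:89271730-89338028 in GRCm38 (mm10), a stretch of 66299 bp with gaps of 32947 bp and 10453 bp between the genes. Because these neighbours of one family did not share a call, the 250 bases before each start are shown, read 5′ to 3′ on the gene's strand from RefSeq (GRCm38.p6), with CG dinucleotides in capitals.
Efna1, chr3:89280952-89281201: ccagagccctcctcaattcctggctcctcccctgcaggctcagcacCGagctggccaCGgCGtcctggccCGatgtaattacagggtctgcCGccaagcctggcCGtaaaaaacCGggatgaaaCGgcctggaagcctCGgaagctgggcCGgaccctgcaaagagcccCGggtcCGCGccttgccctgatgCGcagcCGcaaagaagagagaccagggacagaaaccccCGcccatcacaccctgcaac
Efna3, chr3:89322940-89323189: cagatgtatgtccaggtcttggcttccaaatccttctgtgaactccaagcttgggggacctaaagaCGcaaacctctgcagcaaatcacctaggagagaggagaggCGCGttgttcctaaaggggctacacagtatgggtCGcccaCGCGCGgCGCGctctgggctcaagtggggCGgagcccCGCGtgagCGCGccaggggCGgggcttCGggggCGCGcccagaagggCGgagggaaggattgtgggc
Efna4, chr3:89338029-89338278: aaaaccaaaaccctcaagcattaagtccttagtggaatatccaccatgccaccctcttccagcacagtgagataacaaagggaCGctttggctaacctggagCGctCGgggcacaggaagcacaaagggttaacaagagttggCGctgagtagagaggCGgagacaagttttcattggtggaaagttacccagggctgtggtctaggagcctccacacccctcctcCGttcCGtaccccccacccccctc

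The 250-base windows held 16 CG dinucleotides before Efna1, 19 before Efna3 and 7 before Efna4. The 2 genes that rose therefore had the highest and the lowest count of the 3.

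Efna4 rose from 1.88, 2.12 and 1.77 FPKM in WT to 3.46 and 3.62 FPKM in KO libraries. Its log2 fold change was 0.85 ± 0.10 (SE; limma's adjusted p = 0.0017). Efna3 stood at 1.26, 1.09 and 1.43 FPKM in WT cells and at 2.23 and 2.37 FPKM in KO cells, with a log2 fold change of 0.83 ± 0.13 (adjusted p = 0.0047 in limma). In both genes every KO library lay well above every WT library, and the change was of like size. Efna1, the remaining gene of the row, had 0.44, 0.23 and 0.39 FPKM in WT and 0.19 and 0.15 FPKM in KO libraries, a difference of -0.72 ± 0.26 that did not pass the test (limma's adjusted p = 0.071) but did pass without WT replicate 2 (adjusted p = 0.027). Within 100 kb of the row there were 23 other genes in the table, of which 21 were tested, 5 were higher, 1 was lower and 15 were not called, beside the 18.8% and 22.3% of all genes. Those called, named after their values were seen, were Muc1, Zbtb7b, Gm15417, Shc1 and Pygo2, at log2 fold changes of 0.68, 0.82, 1.27, 0.67 and 0.32, and Thbs3, at -0.46. Gm15417 had 0.08, 0.11 and 0.00 FPKM in WT and 0.27 and 0.28 FPKM in KO libraries, and passed the filter on level through the KO group.

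Efna5, on chromosome 17, was lower in level, with 0.47, 0.48 and 0.56 FPKM in WT and 0.82 and 0.94 FPKM in KO libraries. Its log2 fold change was 0.70 ± 0.15 (limma's adjusted p = 0.013), and the call was lost without KO replicate 2 (adjusted p = 0.069). Efna2 had a mean of 0.843 ± 0.101 FPKM (SD, n = 3) in WT cells and 0.63 FPKM in KO cells, a difference of -0.37 that did not pass the test.

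Among the B-class ephrins, Efnb2 rose. This ligand of EphB4 marks arterial endothelium in the embryo, and in these cells it was read at 1.02, 1.00 and 1.09 FPKM in WT and 1.65 and 1.77 FPKM in KO libraries, a change of 0.67 ± 0.11 in log2 units (limma's adjusted p = 0.0048). Efnb3 had 1.21, 1.33 and 1.16 FPKM in WT and 0.92 and 1.13 FPKM in KO libraries, and its difference of -0.25 ± 0.14 did not pass the test. It is the only member on chromosome 11, where the median log2 fold change of all tested genes was -0.47. With the median of its chromosome subtracted its difference was 0.23, so its direction depended on that choice. Efnb1, on the X chromosome, had a log2 fold change of 0.49 and was not called (limma's adjusted p = 0.089), but was called with quantile normalization (adjusted p = 0.042).

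Of the A-class Eph receptors, Epha4, Epha7 and Epha1 were higher in KO cells, Epha2 and Epha10 were not called, and Epha3, Epha5, Epha6 and Epha8 were below the level for testing. Epha4, a receptor that binds ephrins of both classes, went from 4.12, 3.73 and 3.81 FPKM in WT to 7.09 and 9.93 FPKM in KO libraries. Its log2 fold change was 1.09 ± 0.14 (limma's adjusted p = 0.0022). The KO libraries differed from each other by 1.4-fold, and the lower of them was still above all WT libraries. Epha7 had 0.74, 0.97 and 0.77 FPKM in WT and 1.84 and 1.54 FPKM in KO libraries, a log2 fold change of 0.95 ± 0.16 (adjusted p = 0.0052 in limma).

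Epha1 was close to the limit of the table in WT cells, with 0.09, 0.08 and 0.04 FPKM, and had 0.37 and 0.25 FPKM in KO cells. The change of 1.27 ± 0.25 in log2 units (limma's adjusted p = 0.0096) was fitted with a pseudocount larger than these WT values, and the call was lost without KO replicate 1 (adjusted p = 0.053). Of its exonic bases, 7.21% are shared with exons of the neighbouring gene Zyx, and whether the counting used strand is not given in the sources used here. Epha2 was the A-class receptor of the highest level, with 11.22, 10.94 and 10.26 FPKM in WT and 10.22 and 13.16 FPKM in KO libraries. The groups overlapped, and the log2 fold change was 0.10 ± 0.11 (limma's adjusted p = 0.49). Without KO replicate 1 it was called higher, at 0.28 (adjusted p = 0.036).

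Of the 4 tested B-class receptors, 3 rose. Ephb3 was read at 2.62, 2.31 and 2.08 FPKM in WT and 4.57 and 4.15 FPKM in KO libraries, a change of 0.88 ± 0.11 in log2 units (limma's adjusted p = 0.0022). Ephb2 was read at 1.26, 1.10 and 1.41 FPKM in WT and 1.90 and 2.28 FPKM in KO libraries, with a change of 0.69 ± 0.14 in log2 units (limma's adjusted p = 0.011), and its call was lost without KO replicate 2 (adjusted p = 0.069). Ephb6, whose product lacks kinase activity, had 0.78, 0.88 and 0.81 FPKM in WT and 1.47 and 1.32 FPKM in KO libraries, also 0.69 (SE 0.12, limma's adjusted p = 0.0066). In all 3 genes the KO libraries lay above the WT libraries without overlap.

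Ephb4, the main receptor of ephrin-B2 in veins, was the B-class receptor of the highest level and did not pass the test. It had 6.85, 7.91 and 8.18 FPKM in WT and 7.60 and 6.16 FPKM in KO libraries, which overlap, and a difference of -0.15 ± 0.11 (limma's adjusted p = 0.32). Ephb1 stayed at or below 0.14 FPKM. The most abundant receptor of each class, Epha2 or Ephb4, thus did not pass the test, while less abundant receptors of the same class did.

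**Figure D2:**
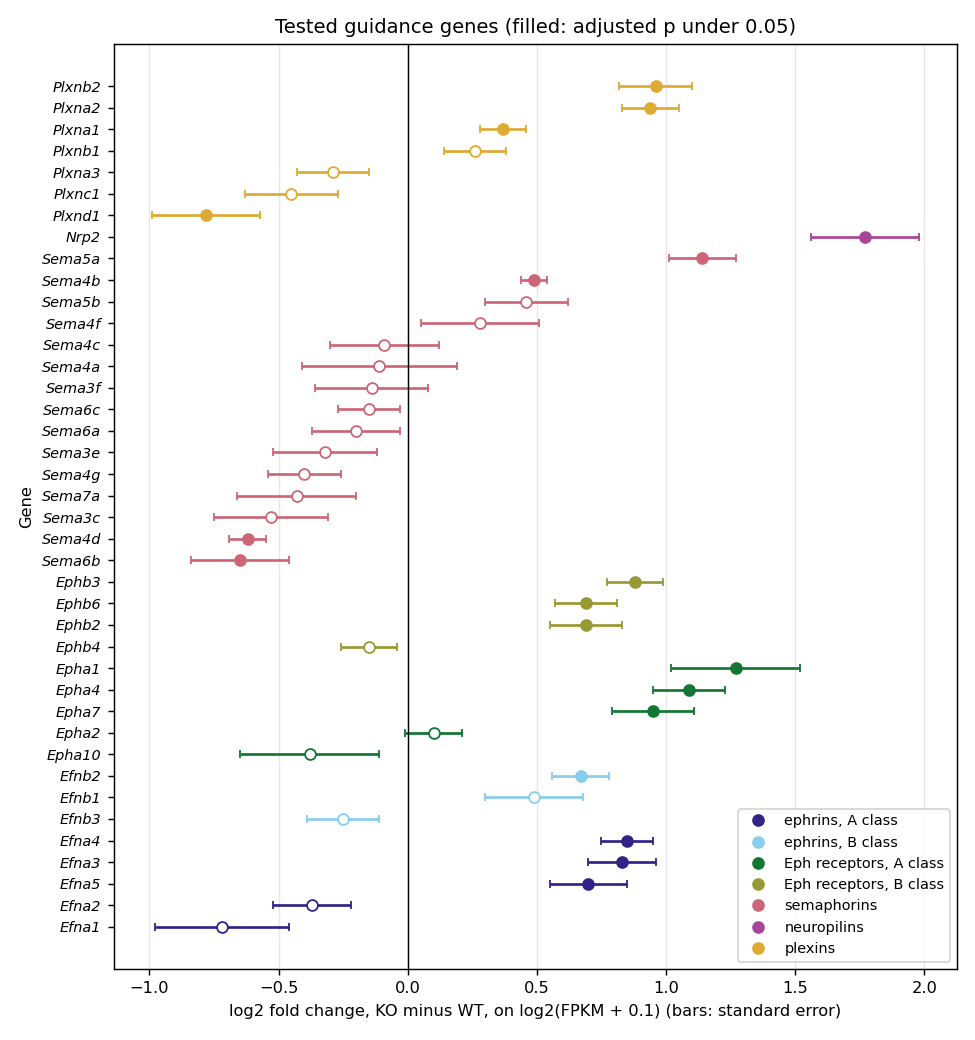
log2 fold change (KO minus WT) of the 40 tested guidance genes, grouped by class, with bars for the standard error and filled points for an adjusted p under 0.05. The tested Eph receptors and ephrins that passed the test all lie to the right of 0, and the semaphorins run from -0.65 for Sema6b to 1.14 for Sema5a.

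The semaphorins were mixed. Of 19 genes, 15 were tested, 2 rose, 2 fell and 11 did not pass the test, and the median log2 fold change was -0.15. Sema5a, a membrane semaphorin with thrombospondin repeats that binds plexin-B3 and proteoglycans, rose most, from 1.57, 2.05 and 1.64 FPKM in WT to 3.74 and 4.18 FPKM in KO libraries. Its log2 fold change was 1.14 ± 0.13 (limma's adjusted p = 0.0016). Sema5b, its paralogue, had 0.46 and was not called (limma's adjusted p = 0.065), though it passed with quantile normalization (adjusted p = 0.028).

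The class 4 semaphorins, which span the membrane and act mostly through B plexins, held the most abundant member and moved in both directions. Sema4b stood at 11.71, 12.41 and 11.71 FPKM in WT and at 17.30 and 16.33 FPKM in KO libraries, a change of 0.49 ± 0.05 in log2 units (limma's adjusted p = 0.0011). Sema4d, the ligand of plexin-B1 that is also known as CD100 on lymphocytes, fell from 7.12, 6.40 and 7.15 FPKM in WT to 4.58 and 4.33 FPKM in KO libraries, a difference of -0.62 ± 0.07 (limma's adjusted p = 0.0016). In both genes the libraries of a group lay close together, and the groups lay apart. The other 4 members of class 4 were not called, at log2 differences of -0.09 for Sema4c, 0.28 for Sema4f, -0.11 for Sema4a and -0.40 for Sema4g (limma's adjusted p = 0.063 for the last). Sema4a had 0.33, 0.24 and 0.17 FPKM in WT and 0.15 and 0.30 FPKM in KO libraries and overlapped between groups.

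Of the 6 class 3 semaphorins described here, which leave out Sema3b, none passed the test, and only 3 were tested, since Sema3a, Sema3d and Sema3g were near 0. Sema3e had 0.41, 0.47 and 0.46 FPKM in WT and 0.42 and 0.27 FPKM in KO libraries. Sema3c had 0.27, 0.30 and 0.28 FPKM in WT and 0.22 and 0.12 FPKM in KO libraries, a difference of -0.53 that missed the threshold (limma's adjusted p = 0.11) and met it without KO replicate 1 (adjusted p = 0.045). Sema3f had 0.13, 0.16 and 0.12 FPKM in WT and 0.09 and 0.14 FPKM in KO libraries. The summed level of these 6 genes of the secreted class was 0.883 ± 0.0603 FPKM (SD, n = 3) in WT and 0.65 ± 0.156 FPKM (SD, n = 2) in KO cells.

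Of the class 6 and class 7 semaphorins, Sema6b was called lower, with 0.27, 0.27 and 0.31 FPKM in WT and 0.17 and 0.12 FPKM in KO libraries and a difference of -0.65 ± 0.19 (limma's adjusted p = 0.039). The call did not hold without any one of WT replicate 1, WT replicate 2, WT replicate 3 or KO replicate 2 (adjusted p = 0.087, 0.076, 0.11 and 0.14). Sema6c, the most abundant of class 6, had 2.34, 1.88 and 2.06 FPKM in WT and 1.88 and 1.86 FPKM in KO libraries, a difference of -0.15 that did not pass the test. Sema6a was not called either, at -0.20, and Sema6d was near 0 and not tested. Sema7a, which carries a lipid anchor and signals through integrins and plexin-C1, had a difference of -0.43 and was called lower without KO replicate 2 (adjusted p = 0.044).

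The neuropilins differed in level. Nrp2, a co-receptor for Sema3f and for VEGF-C, had the largest log2 fold change of the guidance genes at the pseudocount of 0.1. With a pseudocount of 1 it was 0.72, below Epha4 at 0.95, Plxnb2 at 0.88 and Sema5a at 0.85. It was read at 0.20, 0.32 and 0.19 FPKM in WT and at 1.09 and 0.97 FPKM in KO libraries, a change of 1.77 ± 0.21 in log2 units (limma's adjusted p = 0.0018), which is 3.4-fold on the same scale. Nrp1, the co-receptor of Sema3a, had 0.07, 0.05 and 0.04 FPKM in WT and 0.06 and 0.09 FPKM in KO libraries and was not tested. Nrp2 thus rose in cells in which every class 3 semaphorin described here was under 0.5 FPKM in every library.

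Of the 7 tested plexins, Plxnb2, Plxna2 and Plxna1 rose and Plxnd1 was called lower. Plxnb2, a receptor for class 4 semaphorins and for angiogenin, went from 8.37, 7.08 and 6.60 FPKM in WT to 12.60 and 16.20 FPKM in KO libraries, and became the most abundant plexin there. Its log2 fold change was 0.96 ± 0.14 (limma's adjusted p = 0.003), and its KO libraries differed from each other by 1.29-fold. Plxna2 was read at 0.86, 0.93 and 0.85 FPKM in WT and 1.80 and 1.77 FPKM in KO libraries, a change of 0.94 ± 0.11 in log2 units (limma's adjusted p = 0.0015).

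Plxna1 had 8.86, 8.08 and 8.83 FPKM in WT and 10.21 and 12.11 FPKM in KO libraries. Its change of 0.37 ± 0.09 in log2 units (limma's adjusted p = 0.017) was the smallest of those called, and it lies on chromosome 6, where the median of all tested genes was 0.17. With that median subtracted its change was 0.19 and was not called (adjusted p = 0.083), and the call was also lost without WT replicate 2 (adjusted p = 0.054) or without KO replicate 2 (adjusted p = 0.072). Epha1, Ephb6 and Plxnd1 lie on the same chromosome and kept their calls with the median subtracted.

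Plxnd1, the receptor of Sema3e in endothelium, had 0.18, 0.16 and 0.21 FPKM in WT and 0.05 and 0.08 FPKM in KO libraries, a difference of -0.78 ± 0.21 (limma's adjusted p = 0.03). Without any one of the 5 libraries its adjusted p lay between 0.051 and 0.1, so the call rested on having all of them. Plxnc1, with 0.41, 0.38 and 0.52 FPKM in WT and 0.28 and 0.30 FPKM in KO libraries, was lower in both KO libraries but did not pass the test (limma's adjusted p = 0.096). Plxna3 and Plxnb1 were not called, at -0.29 and 0.26. Plxna4 had 0.08, 0.07 and 0.10 FPKM in WT and 0.02 and 0.03 FPKM in KO libraries and was not tested. Plxnb3 was not tested either, and Plxna4os1 was listed at 0 in every library.

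Seen by class, the summed level of plexins was 19.4 ± 1.02 FPKM (SD, n = 3) in WT and 29.6 ± 3.8 FPKM (SD, n = 2) in KO cells. For A-class ephrins it was 4.88 ± 0.185 and 7.52 ± 0.226 FPKM, and for A-class Eph receptors it was 15.8 ± 0.621 and 22.4 ± 3.68 FPKM. B-class receptors had 12.1 ± 0.517 and 14.8 ± 1.19 FPKM and B-class ephrins 2.62 ± 0.105 and 3.26 ± 0.311 FPKM. For the semaphorins the sums were 28 ± 0.286 and 31.9 ± 0.17 FPKM. In each of these sums both KO libraries lay above all WT libraries, while within the semaphorins and plexins the sums of semaphorin classes 3, 6 and 7, of plexin C and of plexin D were lower in both KO libraries. These sums follow the abundant genes and were not tested.

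**Figure D3:**
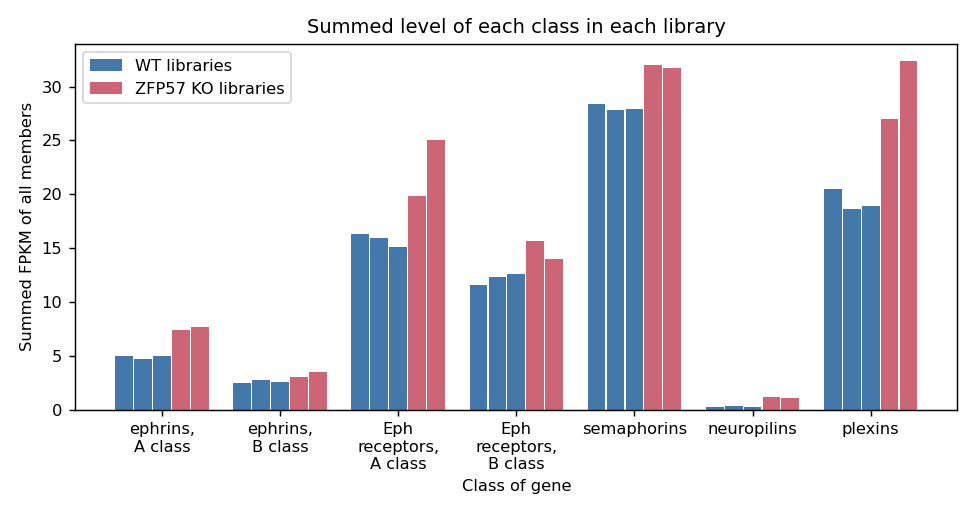
Summed FPKM of all members of each class, one bar per library, with WT libraries in blue and ZFP57 KO libraries in red and the axis starting at 0. The largest class difference in FPKM is that of the plexins, and the 2 KO libraries differ most from each other in plexins and A-class Eph receptors.

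The other guidance pathways and the signalling partners of these receptors were read from 4 lists of 82 genes, of which 60 were tested, 16 were higher (26.7%) and 20 were lower (33.3%), with a median log2 fold change of 0.00. Over all genes 18.8% were higher and 22.3% lower. Without KO replicate 2 the 36 calls of the lists became 22. Of the 7 tested slit and robo genes, 5 were higher and 2 lower. Slit2, a secreted ligand of Robo receptors, had 2.38, 3.38 and 2.91 FPKM in WT and 7.0 and 4.98 FPKM in KO libraries, a change of 1.02 ± 0.19 in log2 units (limma's adjusted p = 0.0076). Its receptor gene Robo1 was higher by 0.40, as were Srgap1 (0.35) and Srgap2 (0.27), which encode GTPase-activating partners of Robo. The lower ones were Slit3 (-0.93) and Robo4 (-1.02), both named after their values were seen and both at most 0.35 FPKM in any library. Their KO means were 0.07 and 0.09 FPKM, so that both passed the filter on level through the WT group.

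Of the netrin and RGM genes, 6 of 17 were tested and 2 were higher. Ntn1, the netrin-1 ligand, had 4.40, 5.02 and 3.68 FPKM in WT and 8.82 and 7.73 FPKM in KO libraries, a change of 0.91 ± 0.13 in log2 units (limma's adjusted p = 0.0033). Neo1, neogenin, a receptor for netrins and RGM proteins, had 11.24, 11.43 and 10.63 FPKM in WT and 18.60 and 17.84 FPKM in KO libraries, a change of 0.71 ± 0.05 in log2 units (limma's adjusted p = 0.00046). Both ligand and receptor were above all WT libraries in each KO library.

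Downstream of Eph receptors, 23 genes were tested, 4 were higher and 7 were lower. Inppl1 (SHIP2), a lipid phosphatase bound by EphA2, fell from 13, 12.18 and 12.60 FPKM in WT to 5.99 and 5.61 FPKM in KO libraries, a difference of -1.11 ± 0.06 (limma's adjusted p = 0.00032). Chn1, the Rac GTPase-activating protein alpha-chimaerin that acts below EphA4, was lower, at -0.76, and the kinase gene Src and the adaptor gene Nck2 were higher by 0.36 and 0.28. Of the list of plexin effectors, co-receptors and their ligands, 24 genes were tested, 5 were higher and 11 were lower, with a median of -0.12. Of the lower ones, Dpysl4 and Fes, named after their values were seen, had KO means of 0.045 and 0.095 FPKM and passed the filter on level through the WT group. Dpysl2 (CRMP2), a tubulin-binding protein, was higher by 0.43, while Rras, a GTPase that plexins switch off, and Dpysl5 were each lower, at -0.78. Receptor genes that rose therefore stood beside partner genes that moved both ways.

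All 5 libraries expressed ES cell markers, with Pou5f1 at 159.01 to 209.55 FPKM and Nanog at 181.40 to 203.97 FPKM, so the label of the cells matched its markers. All 10 were tested, and their sum was 1141 to 1201 FPKM in WT and 1219 to 1301 FPKM in KO libraries. Of them 4 were higher, Klf4 by 0.74, Tfcp2l1 by 0.60, Esrrb by 0.42 and Pou5f1 by 0.27 on the log2 scale, and Fgf4 was lower, at -0.18. Zfp57 itself had 75.94, 72.34 and 70.55 FPKM in WT and 19.00 and 21.62 FPKM in KO libraries, a difference of -1.84 ± 0.06 (limma's adjusted p = 0.00023). Markers of other cell types were read because guidance genes are used by those cells. Of 10 neural markers 8 were tested, with 1 higher and 2 lower and a summed level of 23.8 to 25.5 FPKM in WT and 17.8 to 22.2 FPKM in KO libraries, and Dcx was at 0 in every library. The higher one, Sox1, had a mean of 0.0867 FPKM in WT cells and passed the filter on level through the KO group, and the lower ones were Elavl3, at -2.50, and Nes, at -1.0. Of 8 endothelial markers 3 were tested and 2 were lower, with sums of 7.19 to 7.53 and 3.94 to 4.08 FPKM, and Cdh5 and Emcn were at 0 in every library.

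The sums of some early lineage markers moved with genotype. For 7 mesoderm markers (4 tested, 2 higher) the sum was 1.26 to 1.66 FPKM in WT and 3.52 to 3.66 FPKM in KO libraries, and for 7 trophoblast markers (5 tested, 2 higher) it was 1.23 to 1.48 and 3.37 to 3.93 FPKM. For 6 neural crest markers (3 tested, 2 higher) it was 11.3 to 12.2 and 15.7 to 16.4 FPKM, and for 8 primitive endoderm markers (4 tested, 1 higher) it was 0.82 to 0.97 and 1.14 to 1.45 FPKM. Neither of the 2 tested fibroblast markers of 8 passed the test, and their sum was 9.42 to 12.5 and 10.9 to 13 FPKM. The called markers of these lists were all higher. Eomes had 0.51, 0.60 and 0.38 FPKM in WT and 2.13 and 2.40 FPKM in KO libraries, and T (brachyury) 0.29, 0.51 and 0.30 against 1.02 and 0.67 FPKM. Tfap2a, counted in both the trophoblast and the neural crest list, had a mean of 0.173 FPKM in WT and 0.81 FPKM in KO cells. Krt8, Mitf and Sox7 had log2 fold changes of 1.5, 0.78 and 1.82. In the primitive endoderm list the other 3 tested markers were not called, at -0.48, -0.11 and -0.22, and the median was -0.17, so its sum rested on Sox7. In the neural crest list Foxd3 was not called, at -0.20, and the sum rested mostly on Mitf, with a mean of 6.19 FPKM in WT and 10.7 FPKM in KO cells. Cdx2 and Gata3 reached 0.21 and 0.23 FPKM in KO libraries and were not called. Mesp1, Hand1, Elf5, Sox10, Ednrb, Gata6, Sox17, Foxa2 and Amn were under 0.1 FPKM in every library. The part of these markers in the rise of guidance genes was not tested. In bulk RNA, a change in the share of cells that express a gene and a change in RNA per cell cannot be told apart.

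The position of ZFP57 peaks was then set beside the guidance genes, to ask how many of them lay near a site bound by ZFP57. Positions are 1-based on GRCm38 (mm10), and distances run to the span of the RefSeq gene model. A peak lay within 20 kb of the span of 1 of the 53 genes (1.89%), beside 4.25% of the 24261 genes that could be placed. Within 5 kb the shares were 1.89% and 2.07%. The spans of the guidance genes were longer, with a median of 36272 bp beside 15164 bp for all placed genes. Within 100 kb the counts were 6 genes (11.3%) and 14.2% of all genes, and no guidance gene had a peak within 20 kb of its start (2.49% of all genes). The median distance to the nearest peak was 662959 bp for guidance genes and 597421 bp for all genes. Of the 16 guidance genes that rose, 13 lay more than 500 kb from any peak and 2, Epha7 and Ephb3, had one within 100 kb. Of the other 24 tested guidance genes 12 lay beyond 500 kb. So did 51.9% of all genes that were both placed and tested, and 55.1% of all placed genes. The differences were not tested.

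The 6 peaks within 100 kb of a guidance gene are shown by 20 bases on each side of the ZFP57 hexanucleotide TGCCGC, which was sought on both strands and is in capitals. Each is printed 5′ to 3′ on the strand that reads TGCCGC, from the GRCm38 genome, so that the sites can be compared letter by letter.
Sema3d, chr5:12517129-12517174, minus strand: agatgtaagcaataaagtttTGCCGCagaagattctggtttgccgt
Ephb3, chr16:21109163-21109208, plus strand: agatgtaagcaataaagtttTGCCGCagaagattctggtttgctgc
Epha7, chr4:28768168-28768213, minus strand: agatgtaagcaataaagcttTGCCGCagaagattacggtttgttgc
Sema4a, chr3:88370223-88370268, minus strand: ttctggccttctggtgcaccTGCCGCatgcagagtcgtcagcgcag
Sema3f (1 of 2 copies), chr9:107590445-107590490, plus strand: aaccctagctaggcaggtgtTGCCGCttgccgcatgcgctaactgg
Plxnc1 (1 of 2 copies), chr10:94693751-94693796, minus strand: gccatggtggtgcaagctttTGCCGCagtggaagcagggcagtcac

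The windows of Sema3d and Ephb3 differed at 2 of 46 positions, those of Epha7 and Ephb3 at 4 and those of Sema3d and Epha7 at 6. The other pairs differed at 25 to 36 positions. The hexanucleotide was present in all 6 peaks and in 92% of the 1423 peaks of the list, whose median width was 291 bp. It is thus a property shared by most peaks and not by these alone.

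The peak of Sema3d, chr5:12516959-12517183, lay in an intron, 133798 bp from the gene start. Sema3d was listed at 0.01 FPKM in all 5 libraries, so the gene that held a peak was near 0 with and without ZFP57. The peak of Epha7, chr4:28768083-28768290, lay 44776 bp upstream of the gene between annotated genes, and all of its bases (100%) were soft-masked as repeats in the genome file. The peak of Ephb3, chr16:21109051-21109351, lay 95269 bp upstream, also between genes, with 67.4% of bases soft-masked. Epha7 and Ephb3 were both higher in KO cells.

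The peaks of the remaining genes lay in or over other genes. That of Sema4a (chr3:88370123-88370477) overlapped Bglap3, 65482 bp downstream. That of Sema3f (chr9:107590327-107590649) lay in Ifrd2, 90850 bp downstream, and had no soft-masked base (0%). That of Plxnc1 (chr10:94693602-94693992) lay in Cep83, 96874 bp downstream, with 80.6% soft-masked. None of Sema4a, Sema3f and Plxnc1 passed the test. Over the whole list, 65.6% of peaks had a soft-masked share of 50% or more.

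**Figure D4:**
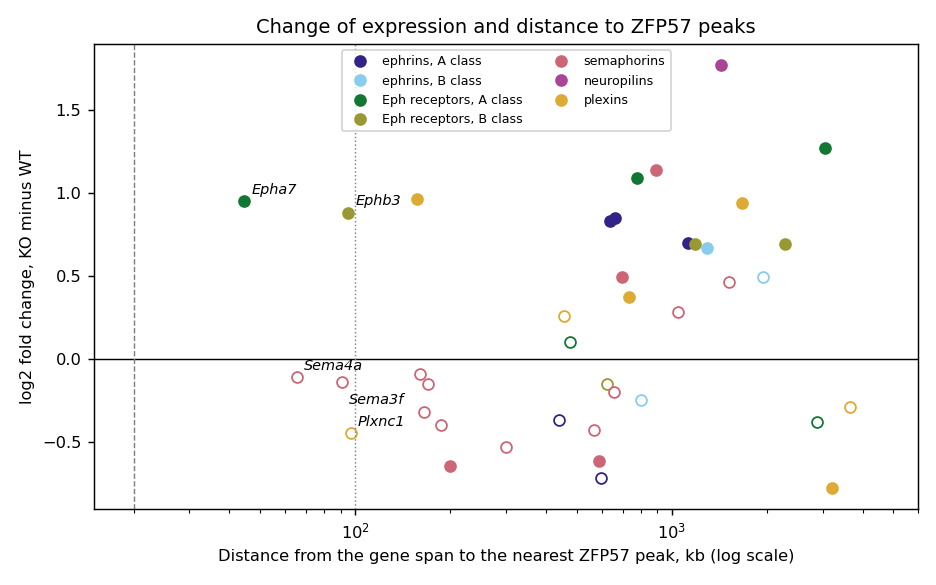
log2 fold change (KO minus WT) of the 40 tested guidance genes against the distance in kb from their span to the nearest ZFP57 peak, on a log axis, with filled points for genes that passed the test and lines at 20 kb (dashed) and 100 kb (dotted). No tested guidance gene lies within 20 kb, and most of the genes that rose lie beyond 500 kb.

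The same hexanucleotide was sought in the promoters of the guidance genes, taken as 250 bases before to 50 bases after the start, from RefSeq (GRCm38.p6). A promoter was found for 47 of the 53 genes, and 12 of them (25.5%) held TGCCGC on either strand, beside 14.2% of the promoters of 17222 genes. The promoters with a match were those of Efna3, Efna5, Efnb2, Epha4 and Nrp2, which rose, of Sema6b, which was called lower, of Efna1, Efna2, Ephb4, Sema3c and Sema7a, which were not called, and of Epha6, which was not tested. The median number of CG dinucleotides per promoter of this length was 23 for the 36 tested members, 14 for the 11 that were not tested and 25 for the 15 that rose, beside 13 for all genes. The value for all genes takes in genes below the level for testing, so it is not a like set for the tested members. No ZFP57 peak lay within 20 kb of the start of any guidance gene.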

How the data were processed

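Expression was measured by RNA-seq in 3 WT and 2 KO libraries of ES cells, from paired reads of 150 bp of ribosomal RNA-depleted RNA. The authors deposited FPKM values per gene, rounded to 2 decimals, and the labels give mm10 as the build. The counting tool and annotation are not given in the sources used here. FastQC 0.11.5, Trim Galore 0.2.7, BWA 0.6.2, Picard, MACS2 2.1.0 and STAR 2.5.2 are named in the submitters' processing notes without a role. Depth is unknown, since FPKM holds no counts, so no counting error is given, and a value of 0.01 is the smallest step of the table. ZFP57 peaks were deposited as positions without scores, and the study kept a peak where 2 or more of the 3 WT replicates gave it independently. A list of 743 peaks for hybrid cells, all of them also in the C57BL/6J list, served as an alternative.

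Groups were taken from the genotype labels. Genes averaging 0.1 FPKM or more went into limma 3.58.1 (R 4.3.3; lmFit and eBayes with trend) on log2(FPKM + 0.1), where the fold change of low genes is understated, with Benjamini-Hochberg adjustment over all 14612 genes and a threshold of 0.05. The fitting procedure was run on simulated data with independent noise and no effect of line or chromosome. That run cannot show whether the p-values hold for these libraries. Gene positions, promoters and sequences came from RefSeq GRCm38.p6, by symbol for 23165 genes and by synonym for 1096. Values in every library are given for called members that changed by 0.5 or more on the log2 scale, for the 2 members of the highest mean in each family, and for members with a peak within 100 kb. From the other pathway lists, the called genes averaging 1 FPKM or more with the 2 highest and the 2 lowest changes are named, and some genes of the lists are not reported here by name. Members and lists were chosen with earlier results of these data known. The KAP1 and H3K9me3 libraries were not analysed here.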

Additional observations from a re-analysis of the deposited data

How the results depend on the processing

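Of 28 named and tested guidance genes, 19 were called, and 12 of these were called under every one of the 15 alternative fits that tested them (Efna3, Efna4, Efnb2, Epha4, Epha7, Ephb3, Nrp2, Plxna2, Plxnb2, Sema4b, Sema4d and Sema5a). No named gene that was called changed direction. The count of genes higher in KO cells was 16, and was 4 where a change of 1 or more on the log2 scale was also required. It was 12 to 18 under the alternative fits, 13 at an adjusted p of 0.01 and 13 to 16 when any one library was left out. The count of genes lower in KO cells was 3. It was 1 with a minimum mean of 1 FPKM, where Plxnd1 and Sema6b were not tested, 1 with quantile normalization, 1 at an adjusted p of 0.01, 0 where that size was required, and 1 to 3 when one library was left out. Without a filter on level, Epha6 was also called higher and Plxna4 lower. With a minimum mean of 1 FPKM, 13 of 21 tested members were higher, beside 23.4% of all genes. The 36 called genes of the other pathway lists became 5 where a change of 1 or more on the log2 scale was also required. Without that requirement they became 16 at an adjusted p of 0.01 and 22 to 25 when 1 library was left out. Without KO replicate 2, the median log2 fold change was 0.01 for the members and -0.02 for all genes, and without KO replicate 1 it was 0.26 and -0.01. The labels do not say whether libraries of like number were paired. Their deviations from the group means correlated at -0.0681 and -0.0357, which gave no sign of pairing, but with 2 KO libraries the deviations of one mirror those of the other, so this cannot settle it. With the replicate block, 12 members were higher and 1 was lower, the calls of Efna5, Epha1, Ephb6, Plxna1, Plxnd1 and Sema6b being lost (limma's adjusted p = 0.062, 0.059, 0.065, 0.073, 0.16 and 0.18), and 13 genes of the other lists were called, while the calls over all genes went from 6002 to 3012. A window of 100 kb gave 6 guidance genes with a peak and a window of 20 kb around the start gave 0, in place of 1. The causes of these differences were not tested.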
